A study of Mus musculus with 6 samples.

Results

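The BCL2 family decides whether a cell's mitochondria release the proteins that start its dismantling, and 9 of its genes were followed in mouse retina. They are Bcl2, Bcl2l1 and Mcl1, which protect cells, Bax and Bak1, which open the outer mitochondrial membrane, and Bcl2l11, Bbc3, Bid and Bik, which act upstream of these. Members were chosen by name: every probe set that the platform annotation gives to exactly 1 of these genes was taken, whatever its value. That gave 29 of the 45037 probe sets other than controls. They covered 8 of the 9 genes, out of 18193 genes named on the array. No probe set was named for Bax, nor for the executioner caspase-3, so neither is analysed here.

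The study compared retinas of Nxnl2-/- mice (genotype ko/ko) with wild-type retinas (wt/wt), all of strain BALB/c AJ at post-natal day 40 and dissected free of pigment epithelium. Nxnl2 encodes a thioredoxin-like protein of photoreceptors. RNA was hybridised to 3 one-colour Affymetrix arrays labelled knockout and 3 labelled wild type, and each value below is a log2 RMA value, a background-corrected and normalized summary of a probe set. How the allele was made and whether an array holds 1 animal or a pool are not given in the labels, so the spread behind each p-value may be technical rather than between animals.

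In a healthy cell BCL2, BCL-XL (the product of Bcl2l1) and MCL1 hold BAX and BAK inactive. The BH3-only proteins BIM (Bcl2l11), PUMA (Bbc3), BID and BIK bind those protectors or activate BAX and BAK directly, after which cytochrome c leaves the mitochondria, joins APAF1 and activates caspases. In mouse retina BAX and BAK are known for their part in the death of developing neurons, and BAX for that of ganglion cells after injury of the optic nerve. Much of this control acts on the proteins, which the arrays do not measure.

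One array stands apart and is shown separately throughout. The brighter Nxnl2 probe set (1429133_at) read 3.78 in knockout replicate 1, 3.73 in replicate 2 and 9.21 in the array labelled knockout replicate 3, against 11.38, 11.45 and 11.42 in wild type. In the array labelled knockout replicate 3, all 14 measured rod markers lay over 1 log2 unit below the mean of the other 5 arrays and all 13 olfactory and nasal mucosa markers as far above it. The median of the rod list was 3.82 there against 13.42 to 13.53 in the other 5, and that of the olfactory list 12.61 against 3.82 to 4.27. Pearson correlations over all probe sets were 0.848 to 0.853 for pairs with that array and 0.994 to 0.996 for pairs among the other 5. Retinal identity is thus at odds with the label of that array. So is its Nxnl2 signal, which both probe sets put well above knockout replicates 1 and 2. The dimmer probe set (1451861_at) read 6.83 there, against 4.25 and 4.11 in those replicates and 8.36, 8.81 and 8.37 in wild type. The genotype of that array was not tested, and in it tissue and genotype cannot be told apart. The 5 retina-like arrays also differ in neighbouring tissue. All 9 pigment epithelium markers lay above the Bacillus control level, described next, on each of them, with list medians of 7.10 and 7.58 in knockout replicates 1 and 2, against 7.64, 8.56 and 7.40 in wild type, and all 9 genes lay lower on average in the knockout retinas. The lens list stood at 7.95 and 8.32 in knockout replicates 1 and 2, against 8.20, 10.79 and 7.99 in wild type, so wild-type replicate 2 is apart. Without wild-type replicate 2 the changes given below for the brightest probe sets were -0.35 for Bcl2, -0.02 for Bcl2l1, 0.12 for Mcl1, -0.30 for Bak1, 0.05 for Bcl2l11, -0.05 for Bbc3, -0.03 for Bid and -0.06 for Bik. The part of pigment epithelium in the member values was not tested. As a guide to background, the brightest of 27 Bacillus control probe sets, which match no mouse transcript, read 4.13 to 4.60 per array. Of the 29 member probe sets, 21 lay above that level on every array and 3 on none. Probe sets differ in brightness for the same amount of RNA, so no level is set against that of another probe set.

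In the retina-like arrays no member was called as different between knockout and wild type, which does not show that none changed. Over these 5 arrays the median standard deviation was 0.15 for the member probe sets and 0.12 for all probe sets. None of the 29 member probe sets passed in knockout replicates 1 and 2 against the 3 wild-type arrays (limma, Benjamini-Hochberg over all 45037 probe sets, threshold 0.05, adjusted p = 1 for each), where 0.0111% of all probe sets passed. An unadjusted p under 0.05 was met by 1 of the 29, or 3.45%, against 3.05% of all probe sets. The groups were free of overlap for 3 of the 29, or 10.3%, which is below the 16.3% of all probe sets. The median log2 change was -0.02 over the 29 and 0.00 over all probe sets, and the median size of the change was 0.08 in both. Half-widths of the 95% intervals, which are not adjusted for the 45037 probe sets, were 0.22 to 0.61. A change much smaller than these could not be seen with 5 arrays. A change of their size could also go uncalled, since the adjusted threshold is stricter than these intervals. A retina holds many cell types, and fewer cells of a type cannot be told apart from less RNA per cell.

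**Figure D1:**
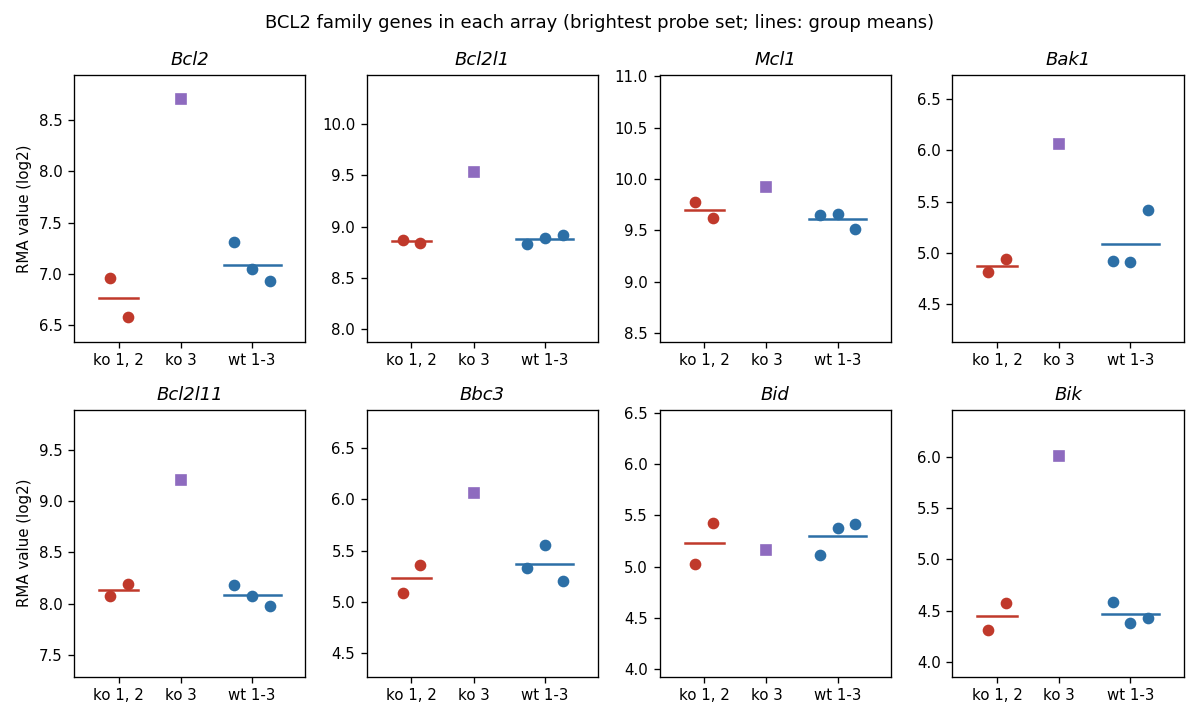
Log2 RMA values of the brightest probe set of the 8 measured genes in each array: knockout replicates 1 and 2 (red, line at their mean), the array labelled knockout replicate 3 (purple square) and wild type (blue, line at the mean). Each panel spans the same log2 range around its own centre, and the purple square lies above all other arrays in 7 of the 8 panels, with Bid the exception.

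Among the protectors, Bcl2 was the member with the lowest knockout values relative to wild type. Its brightest probe set (1457687_at) read 6.96 and 6.58 in knockout replicates 1 and 2, against 7.31, 7.05 and 6.93 in wild type. The second knockout retina was the lowest of the 5, while the first lay among the wild-type values. The log2 change was -0.32 (SE 0.15, 95% interval -0.68 to 0.03, limma adjusted p = 1), or 0.80-fold with an interval of 0.62 to 1.02. All 5 Bcl2 probe sets lay below 0, at -0.37 to -0.10. They read the same gene in the same RNA and are not independent of each other.

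One of these Bcl2 probe sets had groups that did not overlap. This was 1437122_at, at 5.81 and 5.65 in knockout replicates 1 and 2, against 6.27, 6.02 and 6.02 in wild type. Its log2 change was -0.37 (SE 0.12, 95% interval -0.64 to -0.10), with an unadjusted p = 0.0130 and a limma adjusted p = 1. It is the 1 member probe set with an unadjusted p under 0.05. Knockout replicate 2 was the lowest of the 5 arrays in 3 of the 5 Bcl2 probe sets, and knockout replicate 1 in 1. In knockout replicate 2 the skeletal muscle list (12 of 12 genes measured) lay 2.12 above the wild-type mean by its median, against -0.39 in knockout replicate 1; its part in the Bcl2 values was not tested.

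Bcl2l1, which makes the long protective form BCL-XL and the short death-promoting form BCL-XS by splicing, differed little between the groups. Its brightest probe set (1420888_at) read 8.87 and 8.84 in knockout replicates 1 and 2, against 8.83, 8.89 and 8.92 in wild type, and the groups overlap fully. The log2 change was -0.02 (SE 0.10, 95% interval -0.24 to 0.20). The other Bcl2l1 probe sets stood at -0.19, -0.02 and 0.17. In 3 of the 4 probe sets wild-type replicate 3 was the highest of the 5 arrays. For 1420887_a_at that array read 7.94, against 7.32 and 7.44 in knockout replicates 1 and 2 and 7.36 and 7.42 in the other wild-type arrays. The dimmest probe set (1426050_at), with the change of 0.17, lay below the Bacillus level on every array. Which splice form each probe set reads is not given by the annotation used.

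Mcl1, a protector whose protein is made and degraded rapidly, read higher in knockout replicate 1 than in knockout replicate 2. Its brightest probe set (1437527_x_at) read 9.78 and 9.62 in knockout replicates 1 and 2, against 9.65, 9.66 and 9.51 in wild type. The log2 change was 0.09 (SE 0.11, 95% interval -0.15 to 0.34), with 0.01 when knockout replicate 1 was left out and 0.17 when knockout replicate 2 was, and the 6 Mcl1 probe sets ranged from -0.11 to 0.13. Knockout replicate 1 lay above knockout replicate 2 in 6 of 6 probe sets, which read the same RNA and are not independent of each other. The share of all probe sets with this order was not counted. For 1456243_x_at the gap was smaller than the spread of wild type, at 9.27 and 9.20, against 9.15, 9.20 and 8.96 in wild type. For 1456381_x_at the values were 9.10 and 8.65 in knockout replicates 1 and 2, against 8.84, 8.96 and 8.80 in wild type. By the median over its probe sets, Mcl1 stood at 0.18 in the first knockout retina and at -0.18 in the second, both relative to the mean of wild type. The reactive glia list (10 of 10 genes measured) stood, by its median and on the same scale, at 0.61 in the first knockout retina and at 0.03 in the second. Within that list Stat3 is a transcription factor known to activate Mcl1. Stat3 read 9.80 and 9.08 in knockout replicates 1 and 2, against 8.99, 9.22 and 8.92 in wild type. Edn2 (8.73 and 5.06) and Cebpd (8.51 and 6.34) differed more between these knockout retinas, in the same direction. Lcn2 (3.92 and 4.65) and Timp1 (4.69 and 4.87) read lower in knockout replicate 1 than in replicate 2. The part of reactive glia or of Stat3 in the Mcl1 values was not tested.

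**Figure D2:**
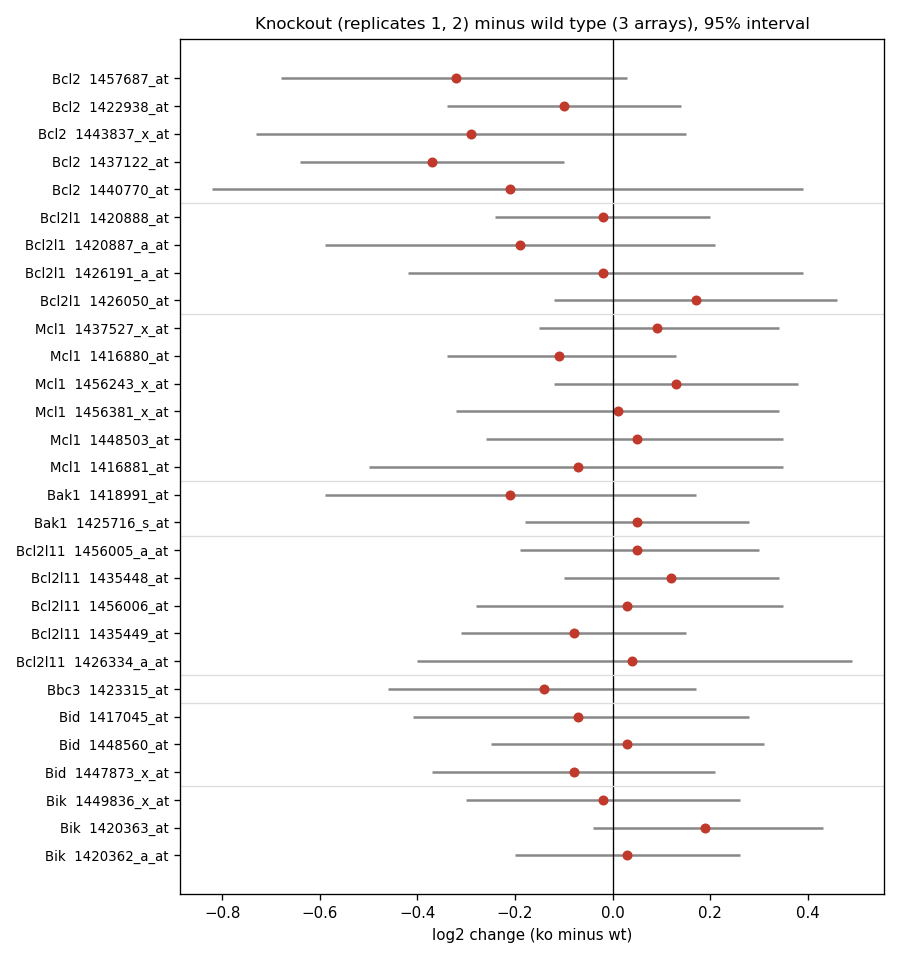
Log2 change of each of the 29 member probe sets, as knockout replicates 1 and 2 minus the 3 wild-type arrays, with limma's 95% interval (grey). The intervals of 28 probe sets span 0, and that of Bcl2 1437122_at runs from -0.64 to -0.10.

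Bak1 encodes the pore-forming partner of BAX. Its brighter probe set (1418991_at) read 4.81 and 4.94 in knockout replicates 1 and 2, against 4.92, 4.91 and 5.42 in wild type, with wild-type replicate 3 above all other retinas. The log2 change was -0.21 (SE 0.16, 95% interval -0.59 to 0.17), a difference that shrank to -0.04 once wild-type replicate 3 was left out. The dimmer Bak1 probe set, below the Bacillus level on every array, stood at 0.05.

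Bcl2l11 is the first of the BH3-only genes, and BIM, its product, can bind every protector of the family. Its brightest probe set (1456005_a_at) read 8.07 and 8.19 in knockout replicates 1 and 2, against 8.18, 8.07 and 7.98 in wild type. The log2 change was 0.05 (SE 0.11, 95% interval -0.19 to 0.30). The next probe set (1435448_at) did not overlap between groups, at 7.60 and 7.63 in knockout replicates 1 and 2, against 7.55, 7.43 and 7.51 in wild type, yet its log2 change was only 0.12 (SE 0.10). All 5 Bcl2l11 probe sets stood between -0.08 and 0.12.

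Bbc3, which encodes the p53 target PUMA, has a single probe set (1423315_at). It read 5.09 and 5.36 in knockout replicates 1 and 2, against 5.33, 5.56 and 5.21 in wild type. The first knockout retina was the lowest of the 5, and the second lay inside the wild-type range. The log2 change was -0.14 (SE 0.14, 95% interval -0.46 to 0.17), and it was -0.01 without knockout replicate 1 and -0.28 without knockout replicate 2.

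Bid links death receptors to mitochondria, since caspase-8 cuts its protein into the active form. Its brightest probe set (1417045_at) read 5.03 and 5.43 in knockout replicates 1 and 2, against 5.11, 5.38 and 5.42 in wild type. The knockout retinas thus lie at both ends of the range, and the log2 change was -0.07 (SE 0.15, 95% interval -0.41 to 0.28). The other Bid probe sets stood at 0.03 and -0.08, and the dimmest lay below the Bacillus level on every array.

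Bik, a BH3-only gene whose protein sits largely at the endoplasmic reticulum, was close to background in retina. Its brightest probe set (1449836_x_at) read 4.31 and 4.58 in knockout replicates 1 and 2, against 4.59, 4.38 and 4.43 in wild type. Of these 5 values 4 lay above the Bacillus level of their own array, and the log2 change was -0.02 (SE 0.12, 95% interval -0.30 to 0.26). A dimmer Bik probe set (1420363_at) did not overlap between groups, at 4.17 and 4.30 in knockout replicates 1 and 2, against 4.12, 4.02 and 3.98 in wild type. All 5 of these values lay below the Bacillus level of their own arrays, and the log2 change was 0.19 (SE 0.10).

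The array labelled knockout replicate 3 differed from the retinas in most members, mainly toward higher values. It lay above all 5 other arrays for 20 of the 29 member probe sets, or 69.0%, against 31.4% of all probe sets. It lay below all 5 for 5, or 17.2%, against 43.1% of all probe sets. More than 1 log2 unit above the mean of the other 5 stood 9 member probe sets, or 31.0%, against 12.0% of all probe sets, and 0 stood as far below, against 11.0% of all probe sets. These 9 belong to 4 genes, with 4 probe sets of Bcl2, 3 of Bik, 1 of Bak1 and 1 of Bcl2l11, counted on measured values, some of them below the Bacillus level. With 1 array there is no test, and probe sets of a gene are not separate observations.

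By their brightest probe sets, Bcl2 and Bik lay farthest above the retinas in that array. The brightest Bcl2 probe set (1457687_at) read 8.70 there, against 6.96 and 6.58 in knockout replicates 1 and 2 and 7.31, 7.05 and 6.93 in wild type. The dimmest (1440770_at) lay farthest above. It read 7.95 there, against 5.27 and 4.77 in knockout replicates 1 and 2 and 5.42, 5.60 and 4.68 in wild type. The 5 Bcl2 probe sets lay 0.53 to 2.80 above the mean of the other 5 arrays, and the brightest one was 3.33-fold higher. Bik was above the Bacillus level there in each of its 3 probe sets, at 6.01, 5.41 and 5.25. The brightest Bik probe set lay 1.55 above the mean of the other 5 arrays, or 2.94-fold higher on measured values. In the retinas it read near the Bacillus level, and below it in wild-type replicate 2 (4.38 against 4.60), so this fold rests on values close to background. The other Bik probe sets read below the Bacillus level in all 5 retinas, so only a bound can be given. With each retina set to its Bacillus level, they lay at least 1.08 and at least 0.92 higher on the log2 scale.

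The other members lay nearer to the retinas. The brightest probe set of Bcl2l11 read 9.20 in that array, 1.11 above the mean of the other 5, that of Bak1 read 6.06 (1.05 above), Bbc3 read 6.06 (0.75 above) and the brightest of Bcl2l1 read 9.53 (0.66 above). The 6 Mcl1 probe sets lay 0.19 to 0.92 above. The 3 Bid probe sets lay -0.29 to -0.11 from the mean of the other 5 arrays, and Bid thus was the gene with no probe set above the retinas. Probe sets of the same gene disagreed in sign for Bcl2l1 (-0.48 to 0.66), Bcl2l11 (-0.57 to 1.11) and Bak1 (-0.25 to 1.05). The probe set at the lower end of each range read below the Bacillus level in that array (3.09, 3.60 and 3.63, against 4.13). A brighter Bcl2l1 probe set (1426191_a_at), above that level on every array, also lay lower, at -0.25. Microglia and leukocyte markers lay over 1 log2 unit above the other 5 arrays there for 9 of 12 genes, and as far below for 1, P2ry12. Müller glia markers lay as far below for 5 of 8 genes, and as far above for 1, Aqp4. Over all genes by their brightest probe set, 15.4% lay as far above and 11.6% as far below. The part of any cell type in the member values was not tested.

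**Figure D3:**
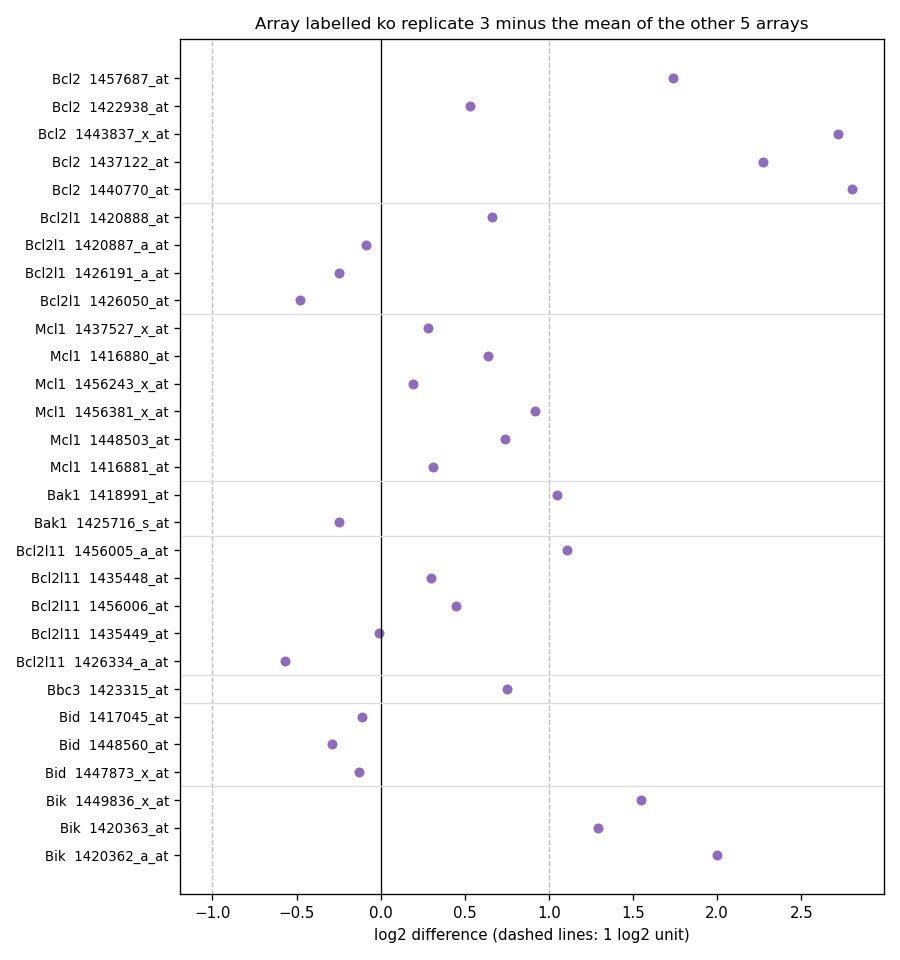
Log2 difference between the array labelled knockout replicate 3 and the mean of the other 5 arrays for each of the 29 member probe sets, with dashed lines at 1 log2 unit on either side. The 9 points right of the upper line belong to Bcl2, Bik, Bak1 and Bcl2l11, and no point lies left of the lower line.

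Taking all 6 arrays as labelled changed the sign of 5 of the 8 genes but gave no call. Of the 29 member probe sets, 0 passed (limma adjusted p = 0.798 to 0.972) and 0 had an unadjusted p under 0.05, where 0% of all probe sets passed and 452 had such a p. Bcl2 stood at 0.32 (SE 0.56) in the 6 arrays and -0.32 in the 5. Bik stood at 0.50 (SE 0.46), against -0.02 in the 5 arrays. Bak1 (0.18), Bcl2l1 (0.20) and Bbc3 (0.13) also turned from below 0 to above it. Bcl2l11 stood at 0.41 (SE 0.32), Mcl1 at 0.17 (SE 0.12) and Bid at -0.09 (SE 0.15), with the sign they had in the 5 arrays. Values of the 3 arrays labelled knockout did not overlap with wild type for 2 of the 29 probe sets, or 6.90%, against 8.32% of all probe sets.

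The rest of the pathway likewise gave no call in the retina-like arrays, which does not show that no gene changed. Of 91 listed genes, 81 had a probe set and 0 passed (limma adjusted p = 1 for those named here). An unadjusted limma p under 0.05 was met by 1, or 1.23%, against 3.05% of all probe sets. By the brightest probe set, 475 of all 18193 genes met it. Groups did not overlap for 13 of the 81, or 16.0%, against 16.3% of all probe sets and 2996 of the 18193 genes. The median log2 change of the 81 was 0.00. Among the 12 other BCL2 family genes, 6 lay above 0 and 6 below, with a range of -0.14 to 0.15. Bcl2l14, a divergent family member, stood at 0.15 (SE 0.11), and Pmaip1, which encodes the MCL1-binding NOXA, at 0.14 (SE 0.10) with all 5 retinas below the Bacillus level. The protector gene Bcl2l2 stood at -0.12 (SE 0.13) and Bad, whose protein binds BCL2 and BCL-XL, at -0.09 (SE 0.10).

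Downstream of the mitochondria, 9 of the 21 apoptosome, caspase and inhibitor genes lay above 0 and 12 below, with a median of -0.02. Dffa, which encodes the inhibitor of the DNase that cuts DNA in dying cells, was the gene with the unadjusted p under 0.05. It read 8.80 and 8.84 in knockout replicates 1 and 2, against 9.17, 9.19 and 9.02 in wild type, without overlap. It stood at -0.30 (SE 0.10, 95% interval -0.54 to -0.07, unadjusted p = 0.0170, limma adjusted p = 1). Casp2, an initiator caspase, stood at -0.16 (SE 0.10), Apaf1 at 0.16 (SE 0.11) and the cytochrome c gene Cycs at 0.11 (SE 0.09).

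The 13 genes listed as acting with BAX and BAK or at the mitochondrial membrane lay within -0.17 to 0.08. The lowest was Tmbim6, the BAX inhibitor gene (-0.17, SE 0.14), while the fusion gene Opa1 stood at 0.08 (SE 0.11), the channel gene Vdac1 at 0.05 (SE 0.09) and the scaffold gene Ywhae at -0.06 (SE 0.12). Over 24 regulators the median was -0.01, with Stat3 at 0.39 (SE 0.20), the survival kinase gene Pim1 at 0.12 (SE 0.10), the stress kinase gene Mapk9 at -0.18 (SE 0.12) and Jun at -0.16 (SE 0.11). The 11 death receptor genes had a median of 0.08. There Fadd, the adaptor that recruits caspase-8, read 6.44 and 6.48 in knockout replicates 1 and 2, against 6.22, 6.17 and 6.32 in wild type, which gives 0.22 (SE 0.10, limma adjusted p = 1). The necroptosis genes Mlkl (0.19, SE 0.12) and Ripk3 (-0.23, SE 0.12) lay on opposite sides of 0, and Tnfrsf10b, a receptor for the death ligand TRAIL, stood at -0.08 (SE 0.14). Mlkl, Ripk3 and Tnfrsf10b read below the Bacillus level on all 5 retina-like arrays, as did 6 of the 11 genes in all, so their values cannot be told from background.

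In the array labelled knockout replicate 3, 21 of the 81 pathway genes, or 25.9%, lay over 1 log2 unit above the other 5 arrays and 5, or 6.17%, as far below, where 15.4% and 11.6% of all genes did so by their brightest probe set. The cell-cycle inhibitor gene Cdkn1a read 10.43 there, against 6.19 and 6.30 in knockout replicates 1 and 2 and 6.32, 5.99 and 6.23 in wild type. The executioner caspase gene Casp6 read 9.28, 3.25 above the mean of the other 5 arrays. Xiap, the caspase inhibitor, was the lowest relative to them, at 9.76 and -2.26 from their mean. Of the 12 other BCL2 family genes 6 lay over 1 log2 unit above, among them Hrk (2.02) and Bcl2l14 (1.90), and 1 as far below, the protector gene Bcl2l10, which read 3.76 there and so below the Bacillus level. Over all genes, 15.4% lay as far above and 11.6% as far below. Cdkn1a, Casp6, Xiap, Hrk and Bcl2l10 were chosen for mention after their values in this array were seen.

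**Figure D4:**
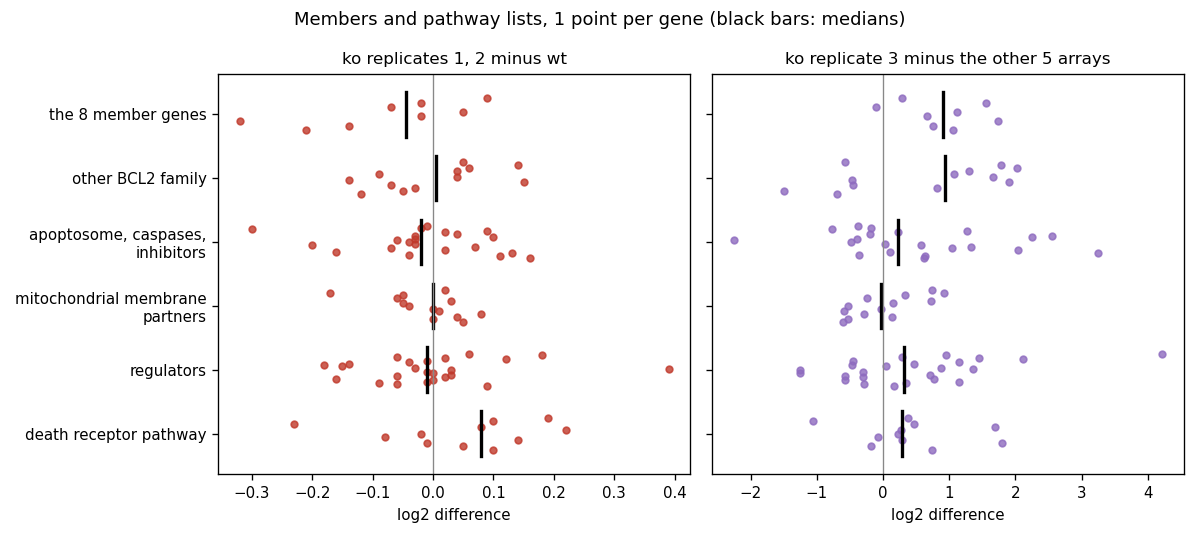
Log2 difference for the 8 member genes and the 5 pathway lists, 1 point per gene by its brightest probe set, with black bars at the medians. On the left, knockout replicates 1 and 2 minus wild type, all points lie within -0.32 and 0.39, while on the right, the array labelled knockout replicate 3 minus the other 5, they run from -2.26 to 4.22.

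Bcl2 had the widest range over the 6 arrays among the brightest probe sets of the members. The genes whose deviations from their own wild-type mean were most like those of Bcl2 over the 6 arrays were 4932441J04Rik, the dynein chain gene Dnaic1 and the checkpoint kinase gene Chek2. Their root mean square differences from Bcl2 were 0.114, 0.119 and 0.128 log2 units. The values of 4932441J04Rik in the 5 retinas, 4.04 and 3.64 in knockout replicates 1 and 2 against 4.11, 4.04 and 3.90 in wild type, lay below the Bacillus level of each array, so there they cannot be told from background. Dnaic1 read 5.17 in knockout replicate 1, 5.06 in replicate 2 and 6.95 in the array labelled knockout replicate 3, against 5.50, 5.42 and 5.41 in wild type. Chek2 read 4.54, 4.26 and 6.19 in the same order, against 4.65, 4.62 and 4.67 in wild type. It lay below the Bacillus level in knockout replicate 2 (4.41) and barely above it in wild-type replicate 2 (4.60). The likeness rests largely on the array labelled knockout replicate 3, where all of them were high.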

How the data were processed

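RNA of mouse retina was hybridised to one-colour Affymetrix arrays. The values the authors deposited are log2 RMA values, per the submitters' processing notes, and the program version and chip definition are not stated there. RMA equalises the arrays' distributions, which hides any difference in total RNA. Of 45101 probe sets, 64 controls were left out. The platform annotation gives 34945 of the rest 1 gene, 932 several and 9160 none. Symbols were updated by Entrez identifier through the RefSeq table of GRCm38.p6, which matched 34741.

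Knockout minus wild type was fitted with limma 3.58.1 (lmFit, eBayes) in R 4.3.3 over all probe sets, two-sided, with Benjamini-Hochberg adjustment, once without and once with the array labelled knockout replicate 3. The fit was checked on simulated data in which all arrays varied alike, so the check does not cover the array labelled knockout replicate 3. A gene's brightest probe set has the highest mean over the 5 retina-like arrays. Members, lists and tests were chosen with earlier results of these data known. The rule for named genes takes every member probe set, 2 genes per direction with the smallest p from each pathway list, and the 3 genes most like the widest-ranging member. Tried as alternatives were trend and robust options, array weights, a second quantile normalization, median or 75th-percentile centring, a replicate block, a filter at the 40th percentile, leaving out each array, 1 value per gene and a threshold of 0.1. Plots were made in matplotlib 3.10.9.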

Additional observations from a re-analysis of the deposited data

How the results depend on the processing

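No member probe set and no pathway gene passed under any alternative run, and the smallest adjusted p of a member gene was 0.951 in the 5 arrays and 0.566 in the 6. Over all probe sets, 5 passed in the 5 arrays, and leaving out an array gave 4 to 11 (11 without knockout replicate 1 and 9 without knockout replicate 2, where the lone knockout array is assumed to vary like wild type). With 1 value per gene, 2 genes passed by the brightest probe set and 1 by the mean of probe sets. In the 6 arrays 0 passed, 5 with array quality weights, 1 at a threshold of 0.1 and 0 to 5 with an array left out. Groups did not overlap for 7325 probe sets in the 5 arrays and 3749 in the 6.

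In the 5 arrays the sign of a member's change was kept in 106 of 111 comparisons, many of which could not have differed. The trend and robust options, the brightest probe set and the filter on dim probe sets leave a tested member's log2 change as it was. The replicate block repeated the log2 changes found without wild-type replicate 3, which has no same-numbered knockout among the 5 arrays. The count is therefore no measure of how stable the signs are. With an array left out Bid ranged from -0.27 to 0.13, Bik from -0.16 to 0.11 and Bcl2l11 from -0.01 to 0.11, and Bik was 0.07 by the mean of its probe sets. Bcl2 (-0.51 to -0.13), Bak1 (-0.30 to -0.04), Bbc3 (-0.28 to -0.01) and Mcl1 (0.01 to 0.17) kept their sign with an array left out, and Bcl2l1 ranged from -0.05 to 0.00. In the 6 arrays, array quality weights turned Bid (0.06), Bak1 (-0.09), Bcl2l1 (-0.01), Bbc3 (-0.09) and Bcl2 (-0.43), and the mean of probe sets turned Bcl2l1 (-0.03). With an array left out of the 6, Bak1 ranged from -0.21 to 0.41, Bcl2l1 from -0.02 to 0.32, Bbc3 from -0.14 to 0.34, Bik from -0.02 to 0.83 and Bcl2 from -0.32 to 0.74. The lower end of each of these is the value without the array labelled knockout replicate 3. The cause of the other changes was not tested. Deviations of same-numbered samples from their group means correlated at -0.06, -0.03 and -0.10. The knockout mean included the array labelled knockout replicate 3, so these correlations cannot show whether samples were paired. The replicate block gave 0 member probe sets and 0 pathway genes called in either comparison. Without dim probe sets Bik was not tested. The number of arrays limits every value.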
